A study of Mus musculus with 2 samples.

Results

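The blood-brain barrier transporters and junctions described here were 10 genes, chosen by symbol out of the 31054 genes in the gene table shared by both libraries. They were 8 transporters and receptors (Slc2a1, Slco1a4, Slco1c1, Abcb1a, Abcg2, Mfsd2a, Tfrc and Slc7a5) and 2 junction proteins (Cldn5 and Ocln), and all 10 were found. Their unique molecular identifiers (UMIs, which count captured RNA molecules) were summed over endothelial cells, other vascular cells, glia and neurons and expressed as UMIs per 1000000 UMIs of the class (CPM). The cells came from the preoptic area (POA), a sleep-regulating part of the anterior hypothalamus, of wild-type C57BL/6J mice of 9 to 10 weeks. One library (SD+RS) came from mice kept awake for 6 h and then allowed 2 h of recovery sleep, and one (SD) from mice kept awake for 6 h. Each pooled animals of both sexes, in a number not stated in the labels. YFP was also among the genes counted, and was a leading gene of a neuron cluster, although the mice are called wild-type. The source of the YFP RNA was not tested. Tissue was dissociated by Act-seq, in which a blocker of transcription is present while cells are released. With 1 library per condition, no difference between SD+RS and SD could be tested, and intervals below are 95% intervals that cover counting error only.

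The blood-brain barrier is formed by the endothelial cells of brain vessels, which are sealed to each other by tight junctions and take up very little by vesicles. Nutrients, hormones and iron therefore cross on dedicated carriers and receptors, while efflux pumps return drugs and other lipophilic compounds to the blood. Wnt ligands from neural tissue, acting through beta-catenin and TCF/LEF factors in the endothelium, maintain this program, and several of its carriers also serve astrocytes, oligodendrocytes and neurons.

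The 250 bases before the start of transcription are shown for Slco1a4 and Slco1c1, neighbouring carrier genes whose levels outside the endothelium differed, and for Mfsd2a, whose level in astrocytes and precursors exceeded that in endothelial cells. They are RefSeq sequences of build GRCm38.p6, read 5′ to 3′ on the strand of the gene, at chr6:141856221-141856470 (minus strand) for Slco1a4, chr6:141524104-141524353 (plus strand) for Slco1c1 and chr4:122961189-122961438 (minus strand) for Mfsd2a. Capitals mark every match, on either strand, to 3 short motifs: CTTTGA of TCF/LEF factors, AGGAAG of ETS factors, which are active in endothelium, and ACGTG of the hypoxia response.
Slco1a4: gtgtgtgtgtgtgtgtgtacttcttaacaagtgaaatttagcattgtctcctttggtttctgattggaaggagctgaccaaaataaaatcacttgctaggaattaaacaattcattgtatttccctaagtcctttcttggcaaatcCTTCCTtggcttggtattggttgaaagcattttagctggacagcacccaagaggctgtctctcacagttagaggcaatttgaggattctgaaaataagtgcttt
Slco1c1: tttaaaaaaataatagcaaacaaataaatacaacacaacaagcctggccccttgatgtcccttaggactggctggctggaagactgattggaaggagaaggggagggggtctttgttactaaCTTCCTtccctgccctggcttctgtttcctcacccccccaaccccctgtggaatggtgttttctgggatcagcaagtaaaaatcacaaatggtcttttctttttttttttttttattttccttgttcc
Mfsd2a: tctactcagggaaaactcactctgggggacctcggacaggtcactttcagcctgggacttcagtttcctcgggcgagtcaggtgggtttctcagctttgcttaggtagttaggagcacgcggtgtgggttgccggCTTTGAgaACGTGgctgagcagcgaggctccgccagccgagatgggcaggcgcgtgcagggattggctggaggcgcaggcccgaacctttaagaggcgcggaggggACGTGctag
Slco1a4 held 1 ETS match on the opposite strand (printed CTTCCT), 104 to 99 bases before the start, and Slco1c1 held 1 of the same kind at 128 to 123 bases. Mfsd2a held CTTTGA at 115 to 110 bases and ACGTG at 107 to 103 and again at 9 to 5 bases. Of 32851 mouse promoters of this length, 13.8% held CTTTGA, 29.5% AGGAAG and 16.6% ACGTG, so that such matches were common, and they are descriptions of the letters and not of binding. Promoters were matched for 9 of the 10 members.

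The SD+RS library had 8106 barcodes and a median of 14774 UMIs, and the SD library 10262 barcodes and a median of 7534.5. After filters and removal of called doublets, 7412 and 9295 cells were described. Of these, 104 in SD+RS and 667 in SD had no class; most lay in a cluster of 63 SD+RS and 614 SD cells that held neuron markers but was left unnamed because its median depth was far below that of the named neuron clusters. Endothelial cells were those with at least 10 UMIs of Cldn5, Flt1 and Ly6c1 together, which gave 420 cells in SD+RS (2577335 UMIs) and 638 in SD (4008162 UMIs), with similar median depths of 4675 and 4390.5. Of these, 284 and 456 lay in the endothelial cluster, where the endothelial marker list scored highest and whose leading genes included haemoglobin genes. Another 134 and 162 lay in a cluster that held both endothelial and pericyte genes. There the median cell had 116.5 and 112 UMIs of the mural marker list, against 1 and 2 in the endothelial cluster. The mixed cluster supplied 47.3% of endothelial UMIs in SD+RS and 40.9% in SD, and the members' ratios are drawn for each cluster. Every member had a lower level in the mixed cluster than in the endothelial cluster of the same library. Called doublets that met the rule, 33 in SD+RS and 113 in SD, were left out. The sexes were mixed unequally: among endothelial cells with UMIs of Xist or of Y-linked genes but not both, 82.5% had Xist in SD+RS and 59.6% in SD. In all, 23 barcodes occurred in both libraries.

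Few cells lay near the limit of the endothelial rule. Cells with 10 to 14 UMIs of the 3 genes numbered 8 in SD+RS and 18 in SD, with 1924 and 436 CPM of Slco1a4, and cells with 5 to 9 numbered 13 and 15, with 163 and 466 CPM. The other classes were named from clusters: 134 and 216 other vascular cells (48 and 112 pericytes, 73 and 87 smooth muscle cells, and fewer than 50 fibroblasts), 2481 and 3989 glia, and 4273 and 3785 neurons. Cldn5 is both a member and part of the rule, and cells that met the rule were taken out of every other class, so neither its presence in endothelial cells nor its low level elsewhere is a result. Selected on Flt1 and Ly6c1 alone, endothelial cells had 4816 CPM of Cldn5 in SD+RS and 4514 in SD, close to the values under the full rule.

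**Figure D1:**
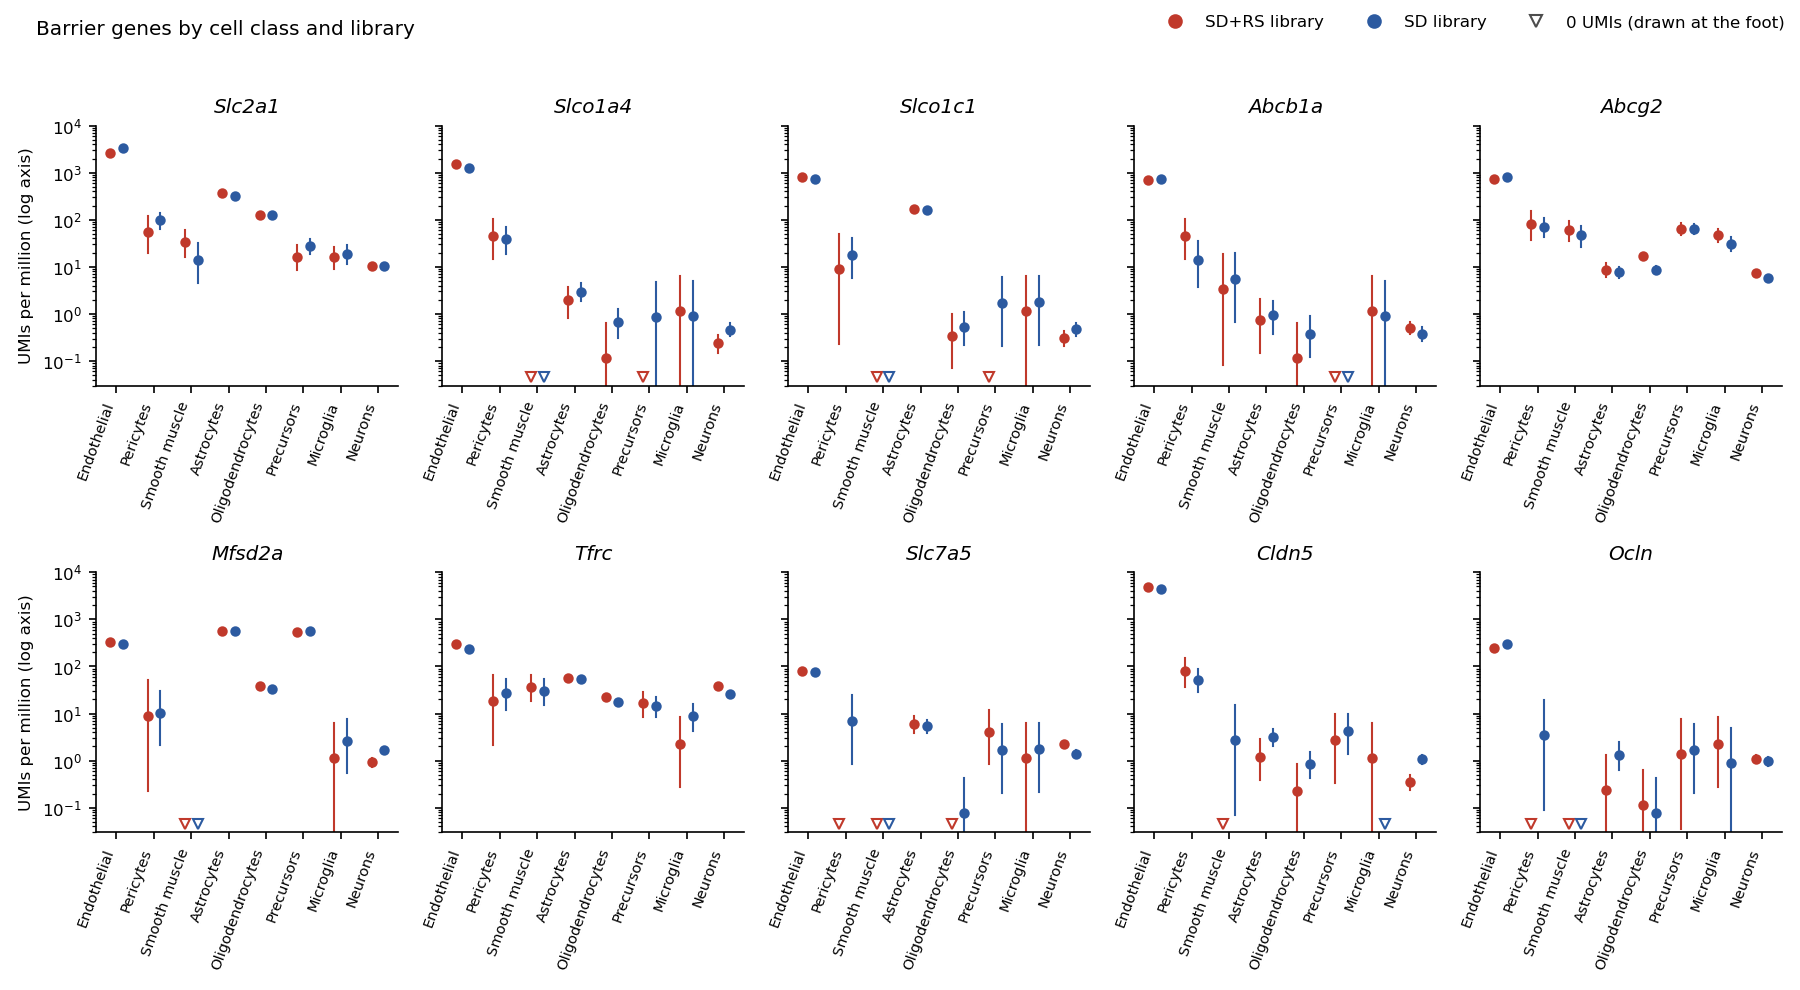
Level of each member (CPM, log axis) in endothelial cells and in the other cell classes, with SD+RS left of SD. Bars are exact 95% Poisson intervals, and triangles at the foot mark classes with 0 UMIs. Mfsd2a stands higher in astrocytes and oligodendrocyte precursors than in endothelial cells, while Slco1a4 and Abcb1a fall to a few CPM or less in glia and neurons.

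Among the carriers of small molecules, Slc2a1 was lower and Slco1a4 higher in SD+RS than in SD endothelial cells, with intervals that excluded 0, although neither difference reached 1.5-fold. Slc2a1 (GLUT1, chr4:119108711-119137983, plus strand) carries glucose across the endothelium. It had 2556 CPM in SD+RS endothelial cells (interval 2494 to 2618), against 3407 CPM in SD endothelial cells (3350 to 3464). The SD+RS over SD log2 ratio of −0.41 (−0.46 to −0.37) lay at percentile 5.29 of the 6961 genes that reached 50 UMIs in each library. Within the endothelial cluster the median cell had 31.1 UMIs of Slc2a1 per 10000 in SD+RS (quartiles 22.0 and 43.3) and 41.5 in SD (28.9 and 57.9), so the ranges of cells overlapped widely although the centre was lower in SD+RS. The ratio was −0.45 in the endothelial cluster, −0.42 in the mixed cluster, −0.43 in Xist-only cells and −0.20 in Y-only cells, which numbered 61 in SD+RS and 189 in SD.

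Slco1a4 (OATP1A4, chr6:141805440-141856199, minus strand) moves bile acids, steroid conjugates and drugs. Its level was 1561 CPM in SD+RS (1513 to 1610) and 1249 CPM in SD (1214 to 1284), a log2 ratio of 0.32 (0.26 to 0.38), opposite in sign to that of Slc2a1. At least 1 UMI was seen in 98.1% of SD+RS and 96.1% of SD endothelial cells, and in an expected 91.3% and 86.8% once cells were thinned to 2000 UMIs. In oligodendrocytes, which should lack it and had median depths of 7045.5 and 6945 UMIs, the shares were 0.116% and 0.637%. Per cell in the endothelial cluster the medians were 21.7 and 15.01 UMIs per 10000. The ratio was 0.28 in the endothelial cluster, 0.37 in the mixed cluster, 0.28 in Xist-only and 0.46 in Y-only cells, so it kept its sign in each.

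Slco1c1 (OATP1C1, chr6:141524368-141570177, plus strand) carries thyroxine. It stood at 791 CPM in SD+RS (757 to 826) and 718 CPM in SD (692 to 745), with a log2 ratio of 0.14 (0.06 to 0.22). The sign depended on the cells used, at 0.24 in the endothelial cluster and −0.09 in the mixed cluster, where the interval included 0. Genes closely related to Slco1a4 gave little signal in endothelial cells: Slco1a5 had 0.776 and 0.499 CPM, and Slco1a1 and Slco1a6 had no UMI in either library.

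Mfsd2a (chr4:122946850-122961188, minus strand) carries lysophospholipids with docosahexaenoic acid into the brain and restrains transcytosis. Endothelial cells held 327 CPM in SD+RS (305 to 350) and 307 CPM in SD (289.96 to 325), whose log2 ratio of 0.09 had an interval that included 0 (−0.04 to 0.22). Slc7a5 (LAT1, chr8:121881150-121907694, minus strand) is the light chain of the carrier for large neutral amino acids and thyroid hormone. It had 79.2 CPM in SD+RS (68.7 to 90.8) and 75.1 CPM in SD (66.9 to 84.1), also with a ratio whose interval included 0 (0.08, −0.19 to 0.34). Both genes changed sign with the cells used: Mfsd2a was at 0.23 in the endothelial and −0.16 in the mixed cluster, and Slc7a5 at 0.20 and −0.26. In the mixed cluster both intervals included 0. The partner chain of Slc7a5, Slc3a2, was at 679 CPM in SD+RS and 689 CPM in SD.

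The efflux pumps were slightly lower or unresolved. Abcb1a (P-glycoprotein, chr5:8660077-8748575, plus strand) had 710.4 CPM in SD+RS (678 to 744) and 746 CPM in SD (719.7 to 773), with a log2 ratio of −0.07 (−0.16 to 0.01). The ratio was −0.01 in the endothelial cluster and −0.23 in the mixed cluster. Abcb1b, a close copy with which reads could be confused, was counted at 1.16 and 2.25 CPM. Abcg2 (breast cancer resistance protein, chr6:58584523-58695676, plus strand) had 728 CPM in SD+RS (695 to 762) and 818 CPM in SD (790.3 to 847), with a log2 ratio of −0.17 (−0.25 to −0.09).

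Tfrc (transferrin receptor, chr16:32608920-32632794, plus strand), which takes up iron bound to transferrin, was the member with the highest ratio in endothelial cells. It had 305 CPM in SD+RS (284 to 327) and 238 CPM in SD (223 to 254), a log2 ratio of 0.36 (0.22 to 0.49) at percentile 85.9 of all genes. A UMI was found in 63.8% of SD+RS and 54.4% of SD endothelial cells, and in an expected 42.6% and 32.1% after thinning. The median cell of the endothelial cluster had 3.25 and 1.42 UMIs per 10000, and the ratio was 0.40 in that cluster and 0.26 in the mixed cluster.

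Both junction proteins seal the cleft between endothelial cells, and their ratios had opposite signs. Cldn5 (claudin-5, chr16:18776847-18778262, plus strand) was at 4867 CPM in SD+RS (4783 to 4953) and 4484 CPM in SD (4418 to 4549.6), with a log2 ratio of 0.12. Ocln (occludin, chr13:100496507-100552718, minus strand) was at 249 CPM in SD+RS (230.2 to 269) and 296 CPM in SD (279.8 to 314), with a log2 ratio of −0.25 (−0.39 to −0.11). For Ocln the ratio was −0.17 in the endothelial cluster, −0.46 in the mixed cluster, −0.02 in Y-only cells and 0.05 in cells with under 10 mural UMIs. The last of these reversed its sign.

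None of the 10 was past 1.5-fold in either direction with 50 UMIs in both libraries, where 4.24% of all genes were past 1.5-fold higher (295) and 2.43% past 1.5-fold lower (169). With shares this low, 0 of 10 is near the background and says nothing particular to the members. Relative to the median ratio of all genes the counts over all genes were 195 higher (2.8%) and 225 lower (3.23%). The members' median log2 ratio was 0.08 and that of all genes 0.06. No member passed 1.5-fold in the endothelial cluster alone, where 4.45% of genes were higher and 2.71% lower, or in the mixed cluster alone, where 3.84% were higher and 2.25% lower.

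**Figure D2:**
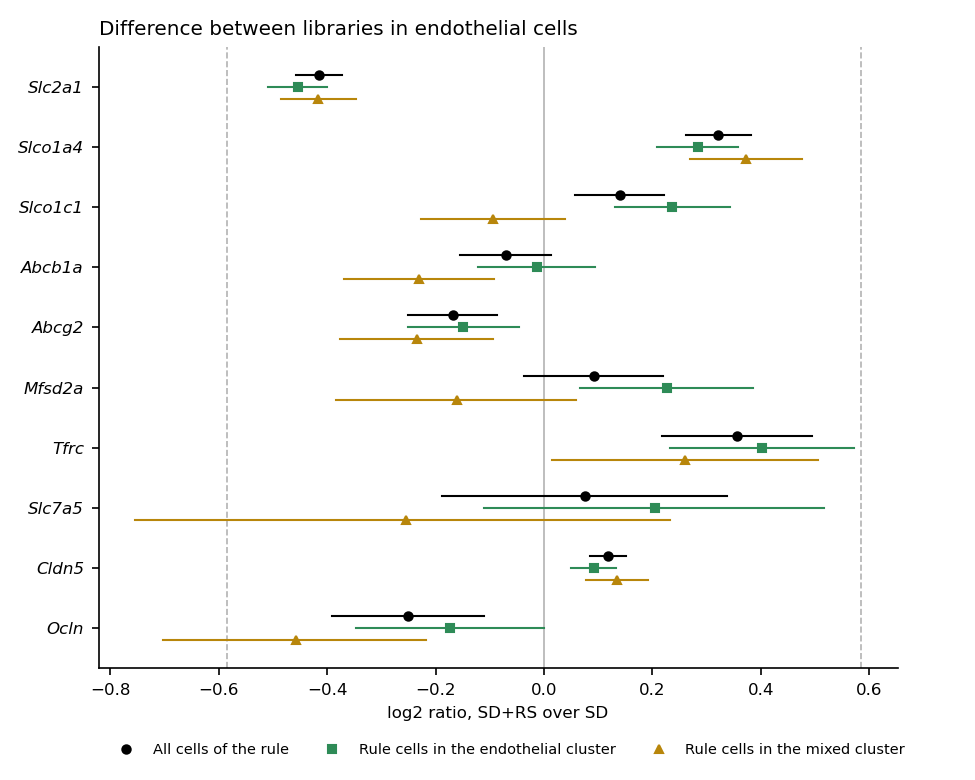
Log2 ratio of SD+RS over SD in endothelial cells for the 10 members, for all rule cells and for the endothelial and mixed clusters apart, with exact 95% intervals and dashed lines at 1.5-fold. Slc2a1 is lowest at −0.41 and Tfrc highest at 0.36 over all rule cells, and no member reaches 1.5-fold.

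Other genes of the barrier, taken from 4 lists, set these values in context. Of 22 further transporters and receptors, 19 had 50 UMIs in both libraries, and 2 were past 1.5-fold higher and 3 past 1.5-fold lower, where 4.24% of all genes were higher and 2.43% lower. The taurine carrier Slc6a6 had 2066 CPM in SD+RS and 1239 CPM in SD (log2 ratio 0.74), and the glutamine carrier Slc38a5, a venous marker, had 160.2 and 107 CPM (0.59). The 3 lower genes were the thiamine carrier Slc19a3 at 36.9 and 70.6 CPM (−0.94), the ApoE receptor Lrp8 at 88.5 and 146 CPM (−0.73) and the insulin receptor Insr at 82.6 and 128 CPM (−0.63). In the endothelial cluster alone Slc38a5 (0.55) and Insr (−0.56) fell short of 1.5-fold, while Slc6a6, Slc19a3 and Lrp8 were past it. The most abundant of the list included Igf1r, at 695 and 997 CPM, whose ratio of −0.52 did not pass.

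None of the 12 further junction genes with 50 UMIs (of 16) passed, where 4.24% of all genes were higher and 2.43% lower. With shares this low, 0 of 12 is near the background. The median log2 ratio of these junction genes was 0.07. Esam, an adhesion molecule of endothelial junctions, had 855 CPM in SD+RS and 819 in SD. The lowest ratios were those of Lsr, which builds contacts where 3 cells meet (275 and 328 CPM, −0.25), and of Tjp1, the scaffold protein ZO-1 (256 and 303 CPM, −0.24). Both had ratios close to that of Ocln, but Tjp1 was at −0.07 in the endothelial cluster alone, against −0.31 for Lsr.

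Neither of the other lists held a gene past 1.5-fold, where 4.24% of all genes were higher and 2.43% lower. For lists this short that is near the background. Among 17 measured genes of 18 in the Wnt-barrier list the median was 0.07, with the transcription factor Sox18 at 0.45, Foxq1 at 687 and 571 CPM (0.27) and the Norrin and Wnt receptor Fzd4 at 116 and 170 CPM (−0.55). Among 5 measured genes of 6 for transcytosis, caveolin Cav1 had 234 and 186 CPM (0.33), Cav2 356 and 269 CPM (0.40) and Cavin2 388 and 537 CPM (−0.47). Plvap, which marks fenestrated vessels and is low in barrier endothelium, had 2 UMIs in SD+RS and 6 in SD.

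Markers of other cells and states also differed between the endothelial cells of the 2 libraries. Over all genes 4.24% were past 1.5-fold higher and 2.43% lower. The heat shock list summed to 8305 CPM in SD+RS and 13977 CPM in SD, with 8 of 14 genes past 1.5-fold lower, led by Hspa1b at −1.82. The arterial list summed to 608 and 354 CPM, with 4 of the 7 genes that had 50 UMIs past 1.5-fold higher. In the endothelial cluster the arterial list summed to 363 and 244 CPM. The mural list summed to 7223 and 5816 CPM with 2 of 13 higher, but to 1072 and 1254 CPM in the endothelial cluster. Oligodendrocyte genes summed to 152 and 1612 CPM, of which 8 cells held 89.4% in SD, and the blood list to 5375 and 2.74 CPM, of which 3 cells held 96.2% of the haemoglobin UMIs in SD+RS. The part of these differences in the members' ratios was not tested, apart from the alternatives that leave such cells or genes out.

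The members differed along the vessel tree. Endothelial cells were split by summed arterial or venous marker UMIs into 83 arterial, 203 neither and 134 venous cells in SD+RS, and 85, 347 and 206 in SD; these are ranges of a score and not types, with 88 and 152 cells at or 1 UMI below the limit. Tfrc was lower in arterial than venous cells, at 109 against 433 CPM in SD+RS (log2 ratio −1.99, −2.36 to −1.64) and 104 against 334 CPM in SD (−1.68, −2.08 to −1.30). Abcg2 had 422 against 913 CPM in SD+RS (−1.11) and 498 against 954 CPM in SD (−0.94). Slc7a5 had 28.4 against 108 CPM in SD+RS (−1.93) and 37.0 against 85.2 CPM in SD (−1.20). These 3 genes, which import iron and amino acids or pump compounds out, thus had the same direction in each library.

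The others leaned less. Cldn5 was at 3474 against 5884 CPM in SD+RS (−0.76) and 3220.0 against 5196 CPM in SD (−0.69), and Slco1a4 at 1023 against 1776 CPM (−0.80) and 992 against 1422 CPM (−0.52). Abcb1a and Ocln were also lower in arterial cells of both libraries. Slc2a1 was at 0.11 in SD+RS and −0.05 in SD. Mfsd2a was highest in cells that were neither, at 450.2 CPM in SD+RS and 379.9 in SD, against 214 and 262 CPM in arterial and 297 and 251 CPM in venous cells. Cells that were neither were shallower, with median depths of 3137 and 3520 UMIs. Arterial cells had 7376 and 5275, and venous cells 5893 and 7052. In the endothelial cluster of SD, the arterial interval for Mfsd2a (329 to 496 CPM) included the neither level of 480 CPM. Slco1c1 had opposite signs in the libraries, at −0.10 in SD+RS and 0.43 in SD. In the endothelial cluster alone Tfrc, Slc7a5 and Abcg2 kept their signs, at −1.48, −1.79 and −1.26 in SD+RS and −1.33, −1.09 and −0.59 in SD. Cldn5 and Slco1a4 kept theirs too, at −0.74 and −0.59 in SD+RS and −0.58 and −0.27 in SD. Other members depended on the cluster. In the endothelial cluster Slc2a1 was higher in arterial than venous cells of both libraries, at 0.24 in SD+RS (0.11 to 0.37) and 0.25 in SD (0.15 to 0.35), although in SD it was 0.06 with an interval that included 0 when zones needed 3 marker UMIs. Mfsd2a, at −0.47 and 0.06 over all endothelial cells, was at 0.12 in SD+RS (−0.27 to 0.50) and 0.67 in SD (0.31 to 1.01) in that cluster. Slco1c1 was at −0.02 and 0.54 there. Abcb1a was at −0.72 and Ocln at −0.69 in SD+RS, but in SD their ratios of −0.22 and −0.30 had intervals that included 0.

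**Figure D3:**
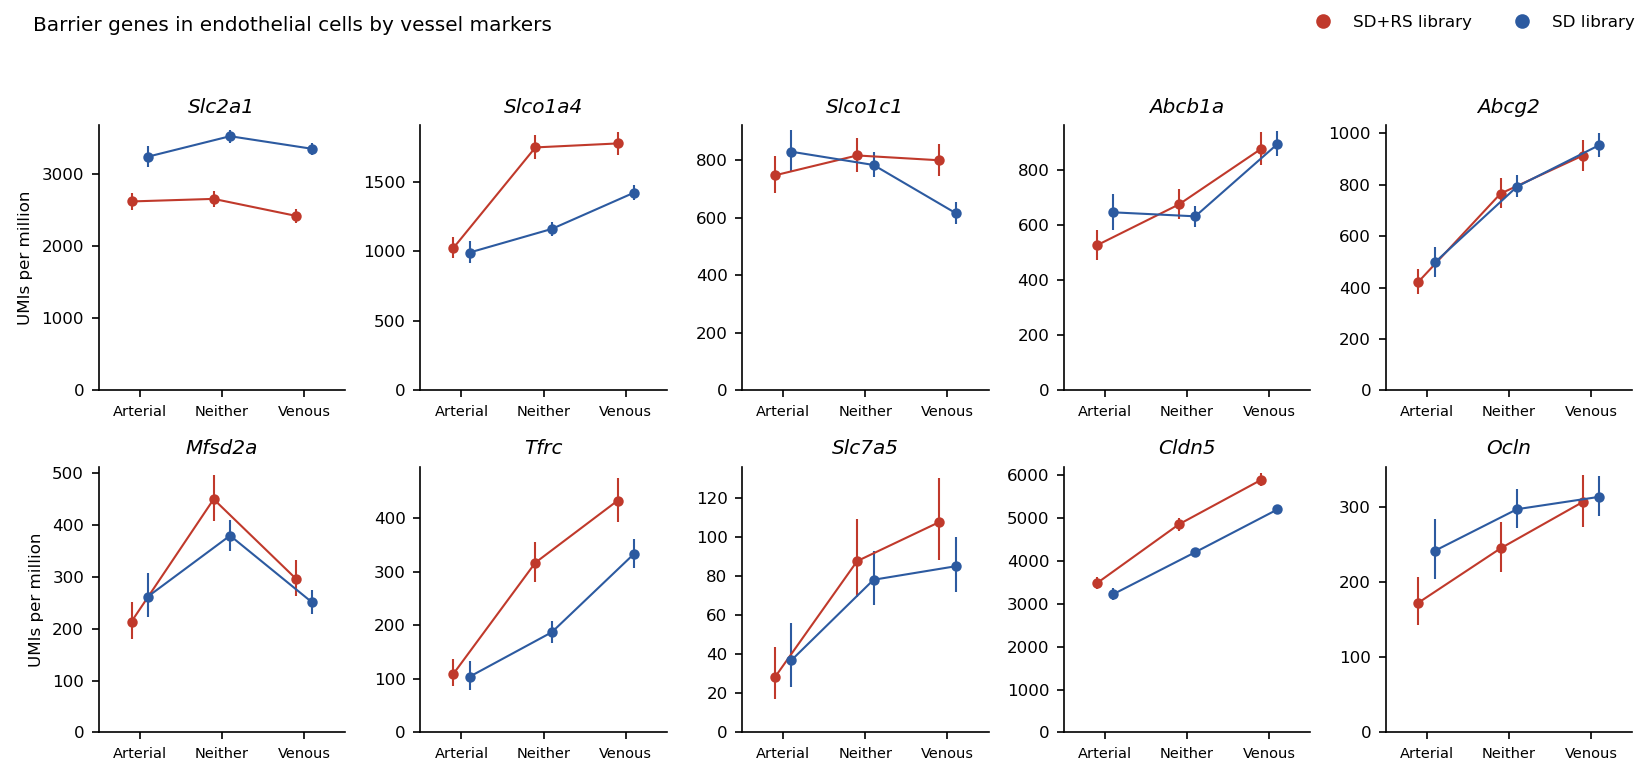
Level of each member (CPM) in arterial, neither and venous endothelial cells of SD+RS and SD, with exact 95% Poisson intervals. Tfrc stands at 109 CPM in arterial against 433 CPM in venous cells in SD+RS, and at 104 against 334 CPM in SD, while Mfsd2a peaks in cells that are neither.

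Each member was set against the 3 broad classes outside the endothelium, other vascular cells, glia and neurons, with the endothelial levels given above. Slc2a1 had 37.4 CPM in SD+RS and 49.7 in SD in other vascular cells, 180.4 and 180.3 in glia and 10.5 and 10.2 in neurons. Mfsd2a had 2.20 and 4.14 CPM in other vascular cells, 213 and 236 in glia and 0.918 and 1.69 in neurons. Glia thus ranked second for both genes, and for Mfsd2a their interval (205 to 220.3 CPM in SD+RS and 229.6 to 242 in SD) lay below that of endothelial cells, with oligodendrocytes and microglia pooled with astrocytes and precursors. Slco1c1 had 2.20 and 6.90 CPM in other vascular cells, 47.8 and 52.9 in glia and 0.309 and 0.473 in neurons.

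The remaining members were low in all 3 classes or spread over them. Tfrc had 28.6 and 26.2 CPM in other vascular cells, 31.3 and 28.5 in glia and 38.2 and 26.5 in neurons, and the intervals of other vascular cells and glia overlapped in both libraries. Abcg2 had 66.0 and 52.5 CPM in other vascular cells, 18.6 and 12.3 in glia and 7.32 and 5.78 in neurons, in the same order in both libraries. Slc7a5 was at 2.01 and 1.96 CPM in glia and 2.28 and 1.41 in neurons, with overlapping intervals. Slco1a4 had 13.2 and 16.6 CPM in other vascular cells, and 0.692 and 1.44 CPM in glia. In other vascular cells Abcb1a was at 13.2 and 8.28 CPM, from fewer than 20 UMIs in either library. Ocln stayed at or under 1.38 CPM in all 3 classes.

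Outside the endothelium the members fell into separate patterns. Slco1a4, Abcb1a and Ocln had at most 0.450% of the endothelial level in astrocytes. A list of 12 other endothelial genes, used to gauge free RNA, reached at most 0.353% there in SD+RS and 0.459% in SD. By contrast Mfsd2a stood at 172% and 187% of the endothelial level in astrocytes, Slco1c1 at 21.0% and 22.4%, Tfrc at 18.9% and 22.4%, Slc2a1 at 14.1% and 9.35%, Slc7a5 at 7.63% and 7.11% and Abcg2 at 1.20% and 0.947%. These 6 were above every gene of that list. All these percents use the level over all rule cells, with the mixed cluster included. Mfsd2a had 432 CPM in SD+RS and 370 CPM in SD in the endothelial cluster, against 232 and 259 CPM in the mixed cluster. Its astrocyte level of 564 and 574 CPM was above both, but by less than the percents give for the endothelial cluster alone.

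**Figure D4:**
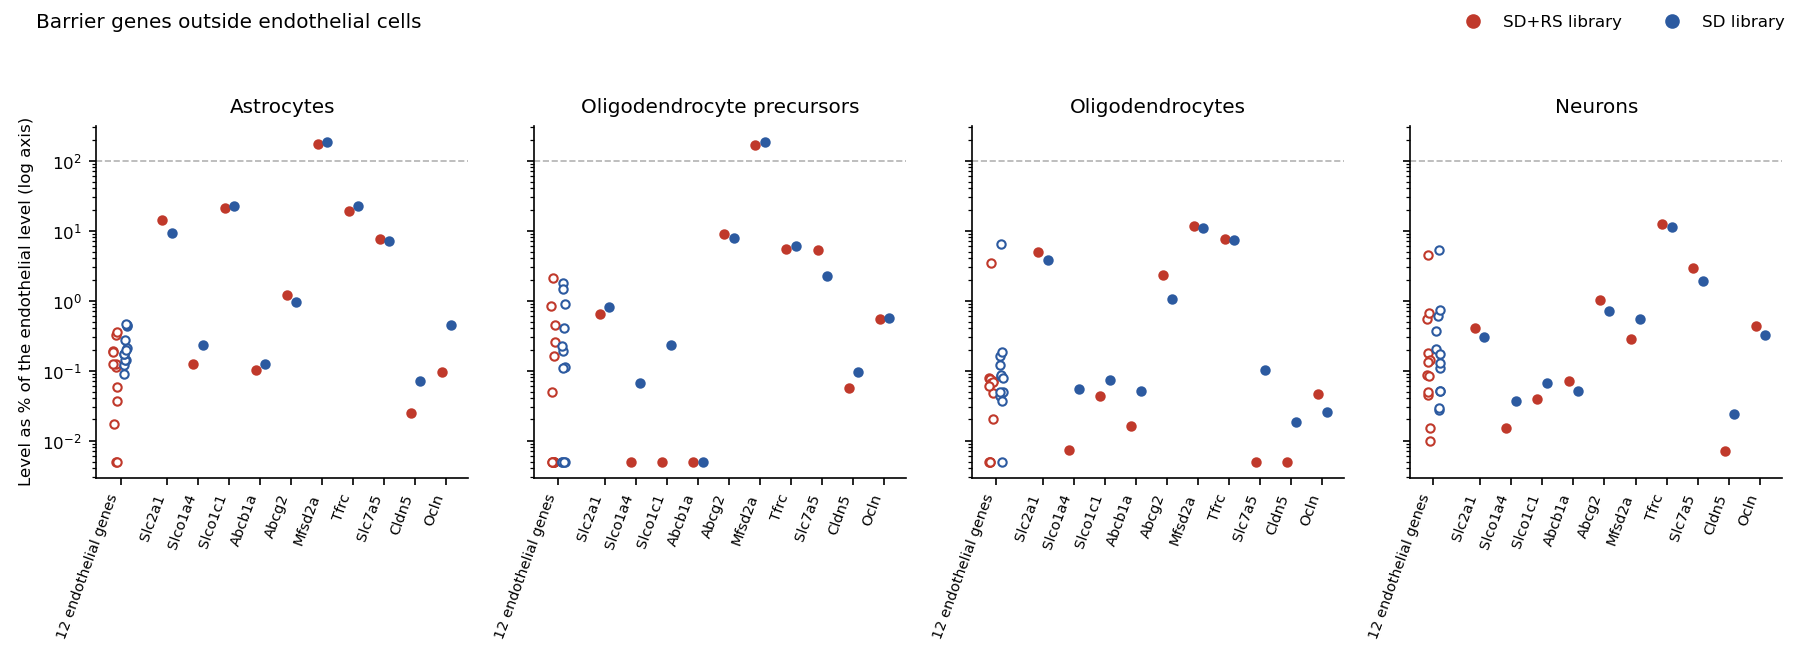
Level of each member (filled points) in astrocytes, oligodendrocyte precursors, oligodendrocytes and neurons as a percent of its endothelial level (log axis), beside the 12 other endothelial genes (open points); values at or near 0 are drawn at the foot and the dashed line marks 100%. Mfsd2a exceeds 100% in astrocytes and precursors, and in neurons Tfrc alone of the members stands above all 12 genes.

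Astrocytes, which supply neurons and the vessel wall with metabolites, had 564 CPM of Mfsd2a in SD+RS and 574 CPM in SD (log2 ratio −0.02, −0.10 to 0.05). Slc2a1, which astrocytes carry in a less glycosylated form, was at 361 and 319 CPM (0.18, 0.09 to 0.27). Slco1c1 was at 166 and 161 CPM and Tfrc at 57.5 and 53.4 CPM. Of the 4 members with 50 UMIs none passed 1.5-fold, where 3.03% of genes were higher and 3.13% lower. Astrocytes of the 2 libraries lay mostly in different clusters, the larger ones holding 1142 SD+RS and 55 SD cells, and 53 SD+RS and 1834 SD cells. Within these the Slc2a1 ratio was 0.26 and 0.48, from 57 SD UMIs in the first and 73 SD+RS UMIs in the second. In the first, the SD interval of 227 to 388 CPM included the SD+RS level of 360 CPM. The ratio of Slco1c1 was −0.18 and −0.58, but from 36 SD and 18 SD+RS UMIs, under the minimum of 50.

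In the oligodendrocyte lineage Mfsd2a was again above its endothelial level, in precursors. They had 549 CPM in SD+RS and 568 CPM in SD, at −0.05, and this was the 1 member with enough UMIs there (2.78% of genes passed higher and 1.22% lower). Relative to endothelial cells Mfsd2a reached 168% and 185% in precursors. Precursors also held Abcg2, at 64.7 and 64.1 CPM, or 8.88% and 7.84% of the endothelial level, above the highest free-RNA gene (2.09% and 1.78%). The oligodendrocyte class pooled mature cells with a cluster of 36 SD+RS and 51 SD cells that held markers of committed oligodendrocytes, such as Gpr17. This class had Slc2a1 at 125 and 129 CPM, Mfsd2a at 38.6 and 33.1 CPM and Tfrc at 23.0 and 17.2 CPM (0.42, 0.13 to 0.70). Oligodendrocytes are rich in iron, and their Tfrc stood at 7.54% and 7.23% of the endothelial level, above the free-RNA list (at most 3.48% and 6.33%). Abcg2 was past 1.5-fold higher in oligodendrocytes, at 16.7 CPM in SD+RS and 8.53 CPM in SD (0.97, 0.60 to 1.33). It was the 1 of 4 members to pass, where 3.18% of genes were higher and 3.25% lower. Its 2.29% and 1.04% of the endothelial level lay under Kdr of the free-RNA list (3.48% and 6.33%), but above the other genes of that list. Over all glia the log2 ratio of Abcg2 was 0.60, past 1.5-fold, but it was 0.35 once cells were thinned to equal depth. Among glia 1 of 5 members passed, where 2.57% of genes were higher and 3.4% lower.

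Tfrc stood highest in neurons of the members, relative to its endothelial level. Its level was 38.2 CPM in SD+RS (37.0 to 39.4) and 26.5 CPM in SD (25.5 to 27.6), or 12.5% and 11.2% of the endothelial level, against a highest value of 4.43% and 5.33% in the free-RNA list. The log2 ratio of 0.53 (0.45 to 0.60) was under 1.5-fold but at percentile 98.98 of all neuronal genes. Tfrc was higher in SD+RS in 14 of 14 named neuron clusters with 50 or more cells in both libraries, against 8 of 14 for Slc2a1. The Tfrc levels of these clusters spanned 33.3 to 47.7 CPM in SD+RS and 17.6 to 35.8 CPM in SD. The clusters share the same 2 libraries, with any offset between them, and are not replicates. The shallow unnamed cluster had 75.2 CPM of Tfrc in SD+RS and 80.8 CPM in SD. The SD+RS value came from 63 cells with a median of 2375 UMIs. Without an interval, these values cannot show whether a difference was present or absent there. With the cells of this cluster added to the neurons, a choice made after seeing the data, the levels were 38.3 and 28.1 CPM and the ratio 0.45. The neurons differed in sex mix, with 77.4% Xist-only cells in SD+RS and 38.7% in SD among cells that could be assigned, and the ratio was 0.30 in Xist-only and 0.71 in Y-only cells.

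**Figure D5:**
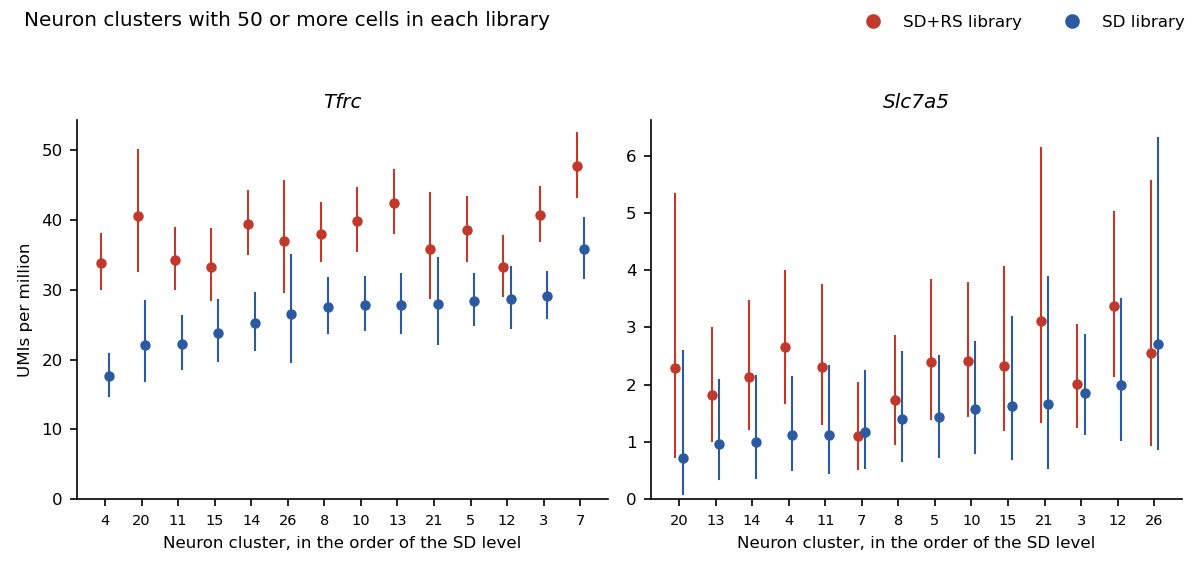
Tfrc and Slc7a5 levels (CPM) in each of 14 named neuron clusters with 50 or more cells in both libraries, SD+RS left of SD, with exact 95% Poisson intervals. Tfrc is higher in SD+RS in 14 of 14 clusters and Slc7a5 in 12 of 14. The clusters share the same 2 libraries and are not replicates. Each Slc7a5 value rests on 24 UMIs or fewer, under the minimum of 50 used for ratios.

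Slc7a5 was past 1.5-fold higher in neurons, at 2.28 CPM in SD+RS and 1.41 CPM in SD (0.69, 0.37 to 1.02), and Mfsd2a past 1.5-fold lower, at 0.918 and 1.69 CPM (−0.88, −1.28 to −0.49). They were 1 of 6 members each, where 0.718% of neuronal genes passed higher and 1.49% lower. For Slc7a5 the ratio was 0.96 in Xist-only but 0.24 in Y-only neurons, which is under 1.5-fold. With the shallow cluster added, Slc7a5 was at 0.60 and Mfsd2a at −0.93, both still past 1.5-fold. Beside Mfsd2a, some genes of other cells were also lower in SD+RS neurons, but not all. The astrocyte genes Gja1 (0.836 and 1.79 CPM) and Slc1a3 (2.68 and 4.88 CPM) were lower. So was Ly6c1 (0.629 and 1.26 CPM), an endothelial gene that is part of the rule. Other endothelial genes were higher, such as Egfl7 at 72.2 and 64.9 CPM and Itm2a at 17.5 and 16.4 CPM. The part of RNA of other cells in the Mfsd2a value was not tested. Abcg2 had 7.32 and 5.78 CPM (0.34) and Slc2a1 10.5 and 10.2 CPM (0.05).

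In mural cells no member had 50 UMIs in both libraries. Pericytes had 81.3 CPM of Abcg2 in SD+RS and 69.7 in SD, and smooth muscle cells 59.8 and 46.4 CPM. Smooth muscle cells had no UMI of Slco1a4, Slco1c1, Mfsd2a, Slc7a5 or Ocln in either library. Microglia, the immune cells of the brain, had Abcg2 at 47.1 and 31.0 CPM, or 6.47% and 3.79% of the endothelial level. Of the free-RNA list Eng alone was higher relative to the endothelial level, with 78.1 and 84.3 CPM in microglia. In SD+RS Abcg2 was above the other 11 genes, of which Pecam1 was highest at 2.40%. In SD Abcg2 was about level with Pecam1 (3.77%), from 35 and 19 UMIs, and above the rest.

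The authors' deposited table of cluster markers over both libraries gives the share of a cluster's cells in which a gene was found. The authors' deposited table lists Slco1a4 in 98%, Abcb1a in 95.9% and Slc2a1 in 100% of the cells of the cluster led by Klf2, Cldn5 and Ly6c1. For Mfsd2a the authors' deposited table lists 55.1% of that cluster, 64.5% of a cluster with astrocyte genes and 75% of a cluster with precursor genes. The 3 classes with most Mfsd2a by CPM were thus of the same kinds.

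Likeness of pattern was measured as the correlation of log2(CPM + 1) over 16 points, 8 cell classes in each of 2 libraries, which share libraries and depth. The classes were split by Cldn5, Flt1 and Ly6c1, so the patterns of Cldn5 and Ly6c1 come from that rule, and the values are descriptions only. Slco1a4 and Cldn5 correlated at 0.98, and both were closest to Slc16a4 (0.99 each), a monocarboxylate carrier, and to Car5a. Abcb1a was closest to Ly6c1 and Adcy4 (0.98 each), and Ocln to Icam2 (0.98). The genes with signal outside endothelium had other neighbours: Slc2a1 was closest to Sox7 (0.89), Mfsd2a to Patz1 (0.93), Tfrc to Maoa (0.91), Slc7a5 to N4bp3 (0.94) and Abcg2 to H2-Q4 (0.93). S1pr1 was among the genes most like Slco1c1 (0.93). Among the members the lowest correlation was 0.18, between Abcb1a and Mfsd2a.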

How the data were processed

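Single-cell RNA libraries of the POA were deposited as UMI count matrices of barcodes already called as cells, which per the file headers the authors made with Cell Ranger 3.0.2. The submitters' processing notes name build mm10 and Seurat 4.0.4. The authors' marker tables give the fraction of cells with a gene, and those deposited fractions are printed as percent; their deposited p-values, made over cells, and their deposited average log difference, treated as a score because its base is not given, were not used.

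Barcodes were kept when they held 500 genes or more and less than 20% mitochondrial UMIs (7709 in SD+RS and 9875 in SD). Scrublet in scanpy 1.11.5 (Python 3.11.15) called 3.85% and 5.87% of them doublets, which were removed, having marked 59.6% and 63.4% of simulated doublets. The rest were clustered on both libraries together (2000 variable genes, 40 components, leidenalg 0.10.2, resolution 1), and clusters were named from marker lists; these names were rebuilt and may differ from those of the study. One cluster with neuron markers stayed unnamed for its low depth (median 3296 UMIs), judged against the other neuron clusters. Intervals came from scipy 1.17.1: Poisson for levels, Clopper-Pearson for shares and conditional binomial for ratios. A gene counted as higher or lower when past 1.5-fold with 50 UMIs in both libraries. Thinning took cells to 2000 UMIs. Vessel zones needed at least 2 UMIs of the arterial or venous list and more than 2 times as many as of the other. The ratio step was checked on simulated counts. Named genes were the members, the extremes and most abundant genes of each list (up to 3 each), and the 3 genes most like each member by Pearson correlation of log2(CPM + 1). One of these most similar genes is not reported here. Members, lists and tests were chosen with earlier results of these data known. Alternatives changed the doublet, cell, rule, scaling, depth and sex choices.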

Additional observations from a re-analysis of the deposited data

Results flagged for a closer look

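Some members had ratios of opposite sign in different cell types, with intervals on either side of 0; none of these differences between cell types was tested, and each rests on 1 library per condition. Slc2a1 had an SD+RS over SD log2 ratio of −0.41 in endothelial cells and of 0.18 in astrocytes, whose cells lay mostly in different clusters in each library. Abcg2 had −0.17 in endothelial cells, against 0.97 in oligodendrocytes and 0.34 in neurons. In oligodendrocytes and neurons its level, relative to endothelial cells, was under the highest gene of the free-RNA list. Mfsd2a had −0.88 in neurons, where its level was about 1 CPM, against 0.22 in oligodendrocytes.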

How the results depend on the processing

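No paired analysis was possible because each condition was 1 library. No member passed 1.5-fold in endothelial cells under any of the 16 alternatives to the ratio. Signs were the same in 16 of 16 for Slc2a1 (−0.48 to −0.20), Slco1a4 (0.26 to 0.47), Tfrc (0.29 to 0.56), Slco1c1, Abcg2, Mfsd2a, Slc7a5 and Cldn5, in 15 of 16 for Ocln and in 13 of 16 for Abcb1a. In Y-only cells only 9 of the 10 had 50 UMIs in both libraries. The mixed cluster on its own is not among the 16; there Slco1c1 (−0.09), Mfsd2a (−0.16) and Slc7a5 (−0.26) had the opposite sign. Over all genes in endothelial cells, 295 were past 1.5-fold higher (4.24%) and 169 lower (2.43%). Shares here are of the genes measured under each setting, whose number differed. Genes higher numbered 195 relative to the median ratio (2.8%) and 192 by cluster in place of the rule (4.38%). For rule cells in the endothelial cluster they numbered 194 (4.45%), and with under 10 mural UMIs 156 (4.49%). They were 165 in Xist-only cells (3.06%), 78 in Y-only cells (5.63%) and 2199 with no UMI minimum (15%). Genes lower numbered 267 with doublets kept (3.21%), 299 with equal weight per cell (4.3%) and 262 after thinning (3.82%). With under 10 mural UMIs they numbered 110 (3.17%), in Y-only cells 34 (2.45%) and with no minimum 1674 (11.4%). With at least 3 marker UMIs for a vessel zone, the arterial over venous ratio in SD was −0.19 for Slc2a1 and −0.67 for Slco1a4, and the other 18 zone ratios moved by less than their intervals. Why these counts moved was not tested, beyond the smaller number of cells or genes that some settings leave. Removing haemoglobin genes, removing cells with oligodendrocyte RNA, splitting astrocytes by cluster and adding the shallow cluster to the neurons were chosen after seeing the data. Y-only other vascular cells (11 in SD+RS) gave no value, and doublets were kept only for endothelial cells. Depth limits Slc7a5, Mfsd2a in neurons and all members in mural cells, where counts were few.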

Other observations

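The early response genes, transcription factors and feedback genes that rise within minutes of a stimulus, were abundant in endothelial cells. In either direction 0 of 12 were past 1.5-fold, where 4.24% of all genes were higher and 2.43% lower. The list summed to 21592 CPM in SD+RS and 23311 CPM in SD, a log2 ratio of −0.11 (−0.13 to −0.10), with a median log2 ratio of −0.14. Atf3, a stress-response factor, had the lowest ratio, at 815 and 1157 CPM (−0.51), and was past 1.5-fold lower in the endothelial cluster alone (−0.64). Fos was at 2808 and 3092 CPM (−0.14), and Junb at 3605 and 3406 CPM (0.08).

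Of 4 capillary markers, Rgcc, a regulator of the cell cycle, was past 1.5-fold lower, at 596 CPM in SD+RS and 932 CPM in SD (−0.64). Over all genes 2.43% were past 1.5-fold lower. The carbonic anhydrase Car4 was at 728 and 779 CPM (−0.10), and Spock2, which encodes a secreted proteoglycan, at 1604 and 1395 CPM (0.20). The monocarboxylate carrier Slc16a1 was at 135 and 138 CPM (−0.04).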
